A study of Homo sapiens with 9 samples.

Results

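The TIG1B line was compared with the control line of HCT116 cells, a human colon carcinoma cell line, after mifepristone (MFP) had switched on the transgene. The comparison rests on 6 of the 9 arrays of the series, 3 from TIG1B stable cells and 3 from control stable cells, chosen by their sample titles alone. All 9 cultures carried the pSwitch regulator plasmid and received 5 nM MFP for 24 h, so the controls had the regulator and the drug as well. The control line held the inducible vector without an insert. The TIG1B line held the same vector with the shorter isoform of TIG1 (RARRES1), with 228 residues of TIG1B, and the 3 arrays of a further line with the 294-residue isoform TIG1A served as a second reference. Each line is 1 stable clone, so that an effect of the isoform and a difference between clones cannot be told apart. The dose and time are those of the sample labels, while the design text of the series names a micromolar dose overnight. Biotinylated RNA was read on a single-colour array on which a transcript is measured by 1 or more probe sets, and a value is the scaled intensity of a probe set, which has no absolute unit and is not compared between probe sets.

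TIG1 was first described as a gene that responds to a synthetic retinoid in skin. It encodes a membrane protein related to latexin, an inhibitor of carboxypeptidases, and it is often silenced by promoter methylation in carcinomas. In the GeneSwitch system a fusion protein built from GAL4, progesterone receptor and NF-kappaB parts becomes active when it binds MFP, and it then turns on the promoter in front of the transgene.

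The 9 arrays had been scaled to 1 common trimmed mean, and their median intensities lay between 59.9 and 73.9. Within a group, the lowest correlation of log2 intensities between any pair of arrays was 0.929 to 0.944 over the groups, and no pair of arrays within a group held the same values. Ratios of 3' to 5' control probe sets, a sign of RNA integrity, were 0.924 to 0.95 for GAPDH in the control cells and 0.899 to 1.01 in TIG1B cells. For ACTB they were 1.21 to 1.27 and 1.12 to 1.23. Of 10 markers of colon epithelium, 6 (EPCAM, KRT8, KRT18, KRT19, CDH1 and CDX2) were at or above the array median on all 6 arrays, and their list summed to 119000 to 131000 in control cells and 106000 to 137000 in TIG1B cells. VIL1, CDX1 and CDH17 were below the median on all 3 control arrays, so the intestinal identity of the line was not borne out by every defining marker. Of the fibroblast, endothelial and blood markers, 1 of 6, 1 of 4 and 1 of 5 were at or above the median on all 6 arrays, and their sums were 579 to 975, 176 to 277 and 326 to 537 in control cells against 1030 to 1120, 160 to 207 and 276 to 435 in TIG1B cells. The fibroblast sum was set by COL1A1, whose mean was 559 in control and 901 in TIG1B cells, and PDGFRB, COL3A1 and LUM were below the median on all 6 arrays.

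The induced gene separated the lines on every array. On its first probe set, RARRES1 read 4.652, 2.904 and 5.175 on the control arrays and 44510, 37080 and 36410 on the TIG1B arrays. On its second probe set it read 57.91, 48.81 and 4.798 against 27080, 19540 and 18600. All control values were below the array median, so only a bound can be given, and RARRES1 was at least 547-fold higher in TIG1B cells on the first probe set and at least 299-fold on the second (limma with Benjamini-Hochberg adjustment, adjusted p = 2.77e-07 and 0.00848). The third probe set of the gene stayed between 1.114 and 25.11 on these 6 arrays and was not kept.

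Of 28836 probe sets kept, 596 passed an adjusted p of 0.05 between TIG1B and control cells, 233 higher and 363 lower in TIG1B cells. That is 2.07% of the probe sets tested, 0.808% in the upward and 1.26% in the downward direction. At least 2-fold differences were present in 393 of them, 1.36% of those tested. The 3 TIG1B values and the 3 control values did not overlap in 25.5% of all probe sets. The split between rises and falls followed the scaling: 39.1% of the calls were rises with the deposited scaling, 46.8% after quantile normalisation (288 of 615) and 70.0% after median centring (294 of 420). Median centring moved the median log2 difference of all probe sets from -0.028 to 0.118. The count also turned on single arrays. It was 1257, 105 and 246 without control array 1, 2 or 3, it was 403, 159 and 202 without TIG1A array 1, 2 or 3, and it was 78, 72 and 121 without TIG1B array 1, 2 or 3. The TIG1A arrays enter through the shared estimate of the spread, and the 6 arrays alone gave 55 calls. Of the 154 probe sets that the naming rules cover, 24 passed in every one of the 9 fits that left out an array.

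TIG1B cells stood apart from both other lines in a small set of probe sets. In the test of TIG1B against TIG1A cells 131 probe sets passed, 0.454% of those tested, and 40 probe sets (0.139%) passed both that test and the test against control cells. Among the 40, 35 were lower and 5 higher in TIG1B cells than in control cells, and for each of the 35 all 3 TIG1B values were below all 6 other values. They include 31 probe sets with 1 gene symbol, for 25 genes, of which 14 lie on chromosome 7 and 11 elsewhere. These 40 were picked because they passed, so their separation is a description. The test against TIG1A cells left 0 calls without TIG1B array 2, 1 without TIG1A array 2 and at most 17 without any other array of these lines, against 47 to 170 without a control array. With the replicate number as a block in the fit it also left 0.

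**Figure D1:**
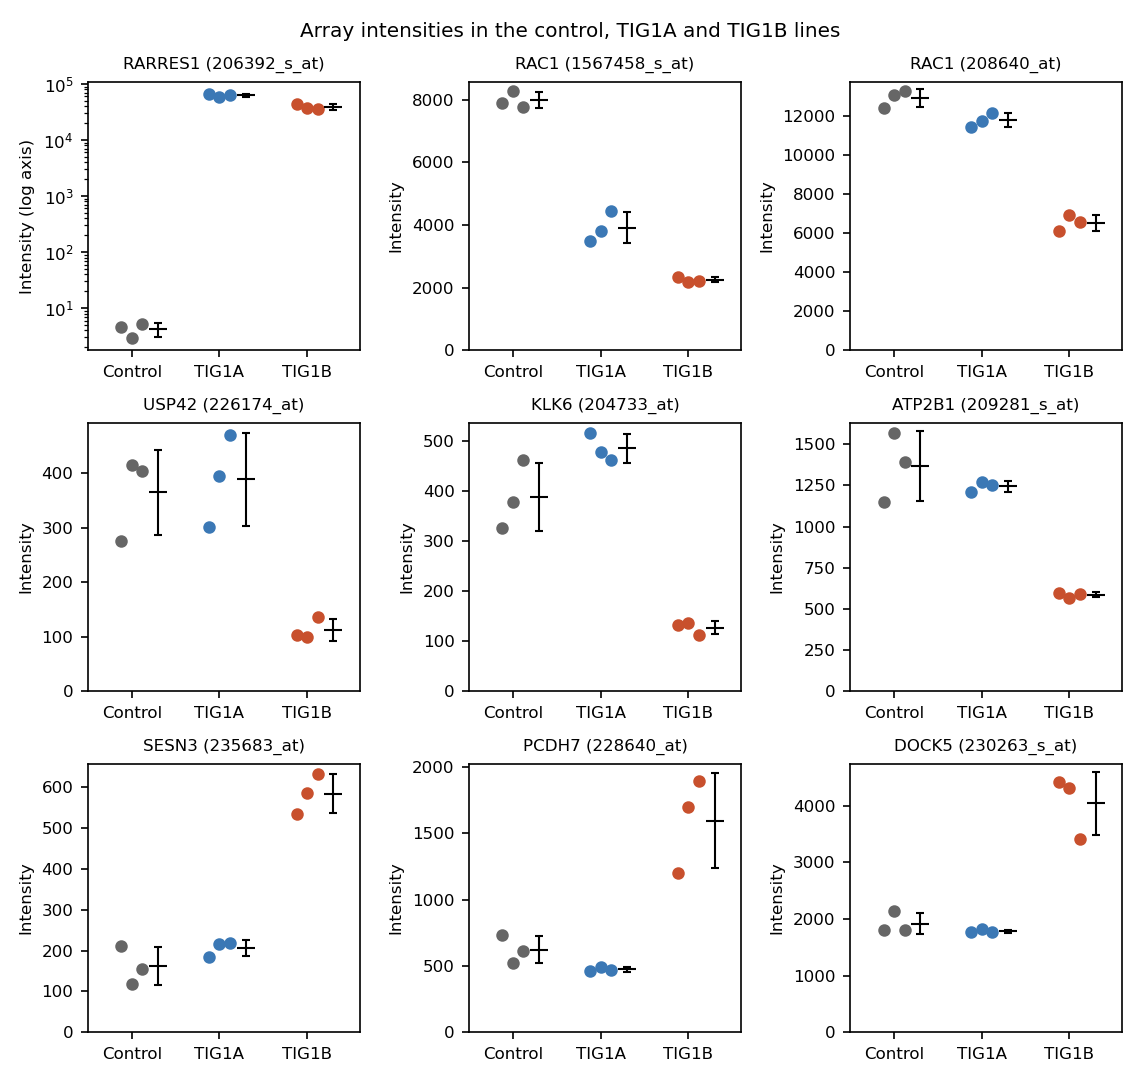
Scaled intensities of 9 probe sets (y axis; log axis for RARRES1, linear from 0 for the rest) on the 3 arrays of the control, TIG1A and TIG1B lines, with mean and SD (horizontal mark and bar, n = 3). The TIG1B values of both RAC1 probe sets, USP42, KLK6 and ATP2B1 lie below those of both other lines, and those of SESN3, PCDH7 and DOCK5 lie above.

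KLK6 was 1 of these genes. It encodes a secreted kallikrein, a trypsin-like serine protease. Its probe set read 326.6, 377.7 and 461.1 on the control arrays, 516.6, 477.5 and 461.4 on the TIG1A arrays and 133.1, 136.2 and 111.9 on the TIG1B arrays. The groups did not overlap, and KLK6 fell by 1.60 on the log2 scale against control cells (SE 0.16, limma adjusted p = 0.0105). The difference from TIG1A cells was -1.94 (adjusted p = 0.0134), and the call against control cells was made in all 9 fits that left out an array. That call was not made on the 6 TIG1B and control arrays alone. Of the 10 kallikrein genes measured, 1 fell and 9 did not pass, against 1.38% of all genes that fell and 0.687% that rose on their brightest probe set. The list's median log2 difference was -0.39, beside -0.012 over all 13103 genes, with KLK5 at -0.64 and KLK10 at -0.86.

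To show the genomic context of these differences, the 250 bases upstream of the annotated start of 3 genes that differed from both lines are shown from RefSeq (GRCh38.p14), for 1 gene that fell and 2 that rose, with each CG pair in capitals. KLK6 lies on the minus strand at chr19:50969592-50969841, SESN3 on the minus strand at chr11:95232476-95232725 and PCDH7 on the plus strand at chr4:30720119-30720368.
KLK6: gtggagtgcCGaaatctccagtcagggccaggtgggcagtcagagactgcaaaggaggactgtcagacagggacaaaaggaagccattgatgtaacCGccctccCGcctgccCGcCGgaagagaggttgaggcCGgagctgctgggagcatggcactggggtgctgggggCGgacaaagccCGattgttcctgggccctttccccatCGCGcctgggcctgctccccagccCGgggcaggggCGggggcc
SESN3: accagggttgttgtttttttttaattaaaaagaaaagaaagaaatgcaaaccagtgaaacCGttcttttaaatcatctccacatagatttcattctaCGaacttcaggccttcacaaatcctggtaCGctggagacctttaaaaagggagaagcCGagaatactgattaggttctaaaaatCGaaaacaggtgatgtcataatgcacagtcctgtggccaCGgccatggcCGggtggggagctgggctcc
PCDH7: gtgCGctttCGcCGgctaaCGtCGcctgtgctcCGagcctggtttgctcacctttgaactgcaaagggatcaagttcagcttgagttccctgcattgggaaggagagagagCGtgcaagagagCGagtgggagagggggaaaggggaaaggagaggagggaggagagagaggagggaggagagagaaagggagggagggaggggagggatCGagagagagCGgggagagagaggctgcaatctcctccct
The 3 windows held 12, 7 and 10 CG pairs and 66.8%, 42.8% and 59.6% G and C. The median over all 27305 genes of the promoter table was 11 CG pairs and 58.0%, and over the 10596 measured genes with a sequence it was 21 and 64.8%. Among called genes the median G and C content was 65.2% for 70 that rose and 69.0% for 146 that fell (23 CG pairs in both). It was 69.4% for the 126 that fell outside distal chromosome 7p. These are letter counts of 1 window per gene, and no factor's binding was measured.

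The 10 other genes that fell against both lines outside chromosome 7 are HR, SLC19A1, PCDHGB6, ADAM33, TFEB, EPB41L4A, ATP2B1, GAS6, ATG12 and STK10. For HR, SLC19A1, PCDHGB6 and ADAM33 the TIG1B arrays were below the array median, so that the falls are at least 1.84-fold, 2.11-fold, 1.03-fold and 2.70-fold. HR and SLC19A1 also have brighter probe sets, which did not pass. These differed by -0.55 and -0.95 for HR and by -0.63, -0.45 and -0.27 for SLC19A1. ATP2B1, a plasma membrane calcium pump, read 1147, 1568 and 1394 on the control arrays and 595.9, 568.6 and 593.8 on the TIG1B arrays on 1 of its 3 probe sets. It fell by 1.21 (SE 0.14, adjusted p = 0.0152) against control and by 1.09 (adjusted p = 0.0329) against TIG1A cells. Its 2 other probe sets differed from control by -0.30 and -0.67 and did not pass, but both were lower than in TIG1A cells (-0.96 and -1.20, adjusted p = 0.0338 for both). In the list of calcium pumps and calcineurin genes, none of the 16 genes measured passed on its brightest probe set.

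GAS6, a ligand of the TYRO3, AXL and MERTK receptor kinases, read 489.3, 732.3 and 695.7 in control cells and 305.3, 296.2 and 301.4 in TIG1B cells. It fell by 1.06 on this probe set (adjusted p = 0.0347), with -0.78 on its other probe set (adjusted p = 0.0673). STK10, a serine/threonine kinase that acts on ERM proteins, fell on 2 of its 3 probe sets, by 0.78 and 0.88. TFEB, a regulator of lysosomal genes, fell on 1 probe set to below the array median, at least 2.07-fold, while its other probe set differed by -0.19 and did not pass. ATG12, the ubiquitin-like conjugate of autophagosome formation, fell by 0.94 on its dimmest probe set, whereas its 2 brighter probe sets differed by 0.02 and -0.34. EPB41L4A, a FERM-domain protein, fell by 1.55 on the 1 probe set of 3 that passed.

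SESN3, PCDH7 and DOCK5 rose against both lines. SESN3 encodes sestrin 3, a stress-responsive inhibitor of mTORC1. On its brightest probe set it read 211.5, 118.8 and 155.9 on the control arrays and 534.3, 584.4 and 630.3 on the TIG1B arrays. The TIG1A arrays, at 184.6, 216.8 and 218.2, were close to the control arrays. SESN3 rose by 1.88 against control (SE 0.21, adjusted p = 0.0142) and by 1.5 against TIG1A cells (adjusted p = 0.0373). The call against control was made in 8 of the 9 fits that left out an array, but not on the 6 TIG1B and control arrays alone. Its 4 other probe sets were all dim, with mean intensities of 55.8 to 95.7 in control cells, and differed by 0.53 to 1.66 without passing. PCDH7, a protocadherin, rose 2.53-fold on the brighter of its probe sets, from 732.5, 524.6 and 616.4 to 1202, 1696 and 1892, with 462.6, 492.7 and 468.6 in TIG1A cells. The other PCDH7 probe set differed from control by 0.46 and did not pass. The PCDH7 call was made in 3 of the 9 fits that left out an array. DOCK5, an exchange factor for RAC1, rose 2.10-fold on its brightest probe set, from 1805, 2141 and 1816 to 4426, 4309 and 3411, with 1771, 1819 and 1770 in TIG1A cells. Of the 4 other DOCK5 probe sets, 2 were higher by 1.12 and 1.21 without passing and 2 differed by -0.45 and 0.13. The DOCK5 call against control was made in 4 of the 9 fits that left out an array. HSPA12A, a heat shock protein of the HSP70 family, rose by 0.93 against control cells and was lower than in TIG1A cells by -0.92, where it read 3000 to 3529. BAIAP3 was above the array median in TIG1B cells and below it in control cells, at least 1.67-fold.

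RAC1, a small GTPase that drives membrane ruffling, fell on each of its 3 bright probe sets. The largest fall was from 7908, 8273 and 7772 to 2339, 2190 and 2226 (-1.83, SE 0.13, adjusted p = 0.00611). On another probe set it read 12400, 13110 and 13300 in control cells, 11460, 11760 and 12170 in TIG1A cells and 6104, 6914 and 6572 in TIG1B cells, a fall of 0.99 (adjusted p = 0.0152) that was also -0.85 against TIG1A cells (adjusted p = 0.0338). On the brightest probe set it fell by 0.92 (adjusted p = 0.0327). Against TIG1A cells neither the first nor the brightest probe set passed. They differed by -0.79 and -0.8 (limma adjusted p = 0.0647 and 0.0909). The probe sets did not move together in TIG1A cells, where the first differed from control by -1.03 and the 2 others by -0.13 and -0.12. A further, dim probe set differed by -0.22 in TIG1B cells and did not pass. The first call was made in all 9 fits that left out an array, and the second in 5 of them.

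ARHGDIA and RDX also changed on several probe sets. ARHGDIA, on chromosome 17, fell on 3 of its 4 probe sets by up to 1.63. RDX, on chromosome 11, encodes radixin, a linker of actin to the membrane, and rose on 3 of its 4 probe sets by 1.11 to 1.16. Both were picked after their values were seen.

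The largest rises and falls among probe sets bright on all 6 arrays were read beside the other probe sets of the same gene. After RARRES1, the 15 largest rises were RGS2, FBXO11, HSP90B1, TWF1, TXN, NCKAP1, PNN, NUCKS1, CAMK2N1, PRPS2, RAB2A, SESN3, METTL9, LOC105371763 and CNN3, from 2.84 down to 1.72 on the log2 scale. RGS2, which speeds up GTP hydrolysis by G protein alpha subunits, led with 1682, 1655 and 4606 on the control arrays and 16770, 17890 and 15580 on the TIG1B arrays (7.14-fold, adjusted p = 0.0179). It had no other probe set kept. Control array 3 was high, and the groups did not overlap. Of 13 rises with other kept probe sets, 12 were not on the brightest one, and of 33 such other probe sets 1, for PNN, also rose, with a median difference of 0.21. HSP90B1, an endoplasmic reticulum chaperone, rose from 395.5, 584.2 and 703 to 4125, 2808 and 2848 on the named probe set, while its other probe set, with a mean of 17000 in control and 20200 in TIG1B cells, differed by 0.25 and did not pass. TXN (thioredoxin), TWF1 (twinfilin 1, an actin monomer binder) and PRPS2 showed the same: their other probe sets differed by 0.01 to 0.19 without passing. Of the 15, 14 also rose past the threshold in TIG1A cells against control cells, and SESN3 alone passed between TIG1B and TIG1A cells. Both comparisons with control cells use the same control arrays, so the shared rises are not independent evidence.

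The 15 largest falls were LNCAROD, GTPBP3, ATN1, TLN1, EPN1, RAC1, SF3A1, DNAAF5, POLR1F, RBAK, NCDN, GRIN2D, IDS, USP42 and DAGLB, from -2.11 to -1.67. For 10 of them another kept probe set of the gene was brighter. GTPBP3 differed by -0.14 on its brighter probe set and did not pass there. Of 27 other kept probe sets for 13 of the 15 genes, 10 also fell, for 6 genes, 25 were lower and the median difference was -0.83. Against the same control arrays, 9 of the 15 also fell past the threshold in TIG1A cells, which is not independent evidence. Between TIG1B and TIG1A cells 2 passed, RBAK and USP42. DAGLB, a diacylglycerol lipase, fell on all 4 of its probe sets by 1.20 to 1.67, and USP42, a deubiquitinase, on all 3 by 0.81 to 1.68. The USP42 calls were made in 3, 1 and 0 of the 9 fits that left out an array. ATN1 (atrophin 1) fell on both of its probe sets, by 2.03 and 1.71. TLN1, which encodes talin 1, fell from 734.3, 780.2 and 1101 to 142.6, 229.8 and 303.9 on the named probe set, while a dim second probe set differed by 0.31. IDS, the lysosomal iduronate sulfatase, fell on 1 of its 7 kept probe sets, and the other 6 lay between -1.01 and 0.24. Over all calls with 1 symbol and another kept probe set, 14 of 159 rises and 77 of 237 falls had another probe set called in the same direction, and the median difference of the other probe sets had a median of 0.21 over the rises and -0.62 over the falls. No gene was called in both directions.

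**Figure D2:**
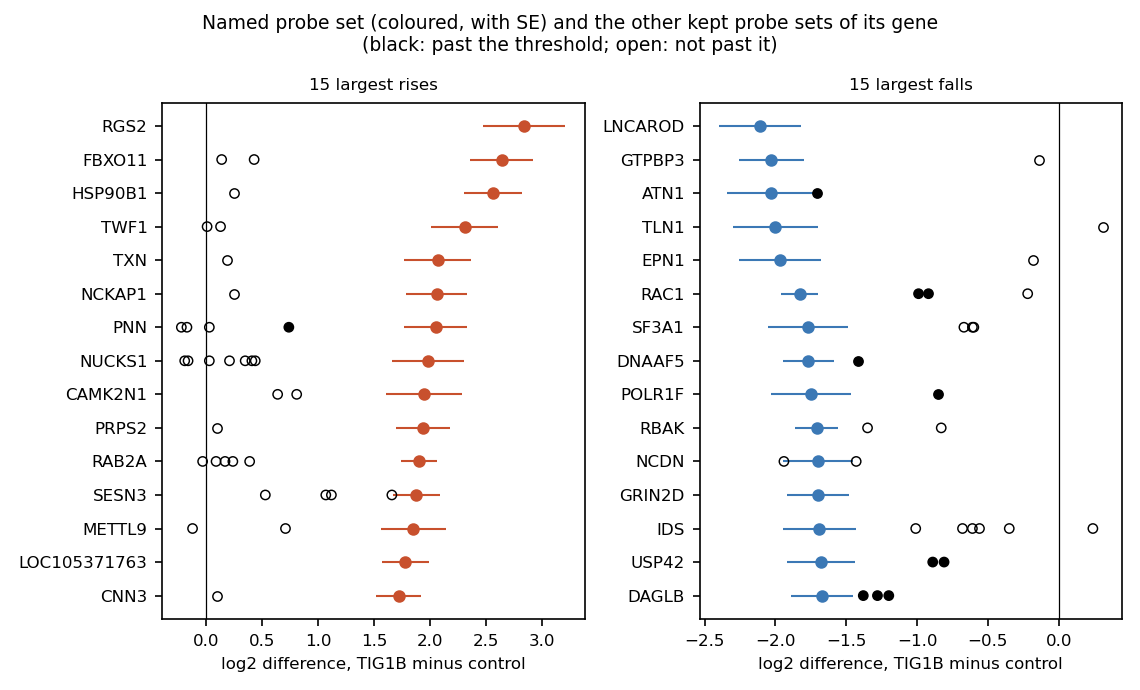
log2 difference of TIG1B minus control cells (x axis) for the 15 largest rises and the 15 largest falls (rows), as the named probe set with its SE (coloured) and the other kept probe sets of the gene (black where past the threshold, open where not). Of the other probe sets, 1 of 33 passed beside the rises and 10 of 27 beside the falls.

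The differences were then read along the chromosomes. Genes with a position on chromosomes 1 to 22 and X were cut into 513 runs of 25 neighbours, and the median log2 difference of each run was taken. Genes past the last full run of a chromosome entered no run. The lowest 3 runs and the fifth lowest were the first 4 runs of chromosome 7. The lowest, FAM20C to EIF3B, had a median of -0.93, CHST12 to RAC1 -0.89, DAGLB to PRPS1L1 -0.77 and HDAC9 to CYCS -0.53. Over the 100 genes of these 4 runs, from 192571 to 25125260 on chromosome 7 (GRCh38.p14), 92 were lower in TIG1B cells and 28 passed (28.0% against 1.38% of all genes). The 3 TIG1B arrays had medians of -0.77, -0.80 and -0.79 there against the control mean, and the TIG1A arrays -0.02, -0.10 and -0.08. The 500 genes of the remaining runs on chromosome 7 gave a median of -0.01, with run medians from -0.19 to 0.20. The border is described as it fell and was not tested.

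Inside that stretch the falls included EIF3B, the RNA-recognition subunit of translation initiation factor 3, from a mean of 9570 ± 1720 to 4250 ± 241 (SD, n = 3) on its brightest probe set. EIF3B fell on all 3 of its probe sets, and it was the 1 of 12 eIF3 genes measured that passed, with a median of 0.02 for the list. SUN1, a nuclear envelope protein that anchors the cytoskeleton, read 5118, 4911 and 4466 in control cells and 2036, 2433 and 2473 in TIG1B cells (-1.07, adjusted p = 0.0191), and the 3 TIG1A arrays read 4125 to 4828. INTS1, a subunit of Integrator, fell by 1.49, TTYH3 by 1.63, SLC29A4 by 1.67 and BRAT1 by 1.62. Some genes of the stretch also fell past the threshold in TIG1A cells against the same control arrays. These include BRAT1 (-1.19), DNAAF5 (-1.06), INTS1 (-0.74), ZDHHC4 (-0.73) and OSBPL3 (-0.69), while TTYH3 (-0.53) and SLC29A4 (-0.42) did not pass there. BRAT1, DNAAF5 and INTS1 did not pass between TIG1B and TIG1A cells. MIOS, a subunit of the GATOR2 complex upstream of mTORC1, fell by 0.70. FSCN1, which encodes the actin-bundling protein fascin, fell on both probe sets by 0.96 and 1.61. WIPI2, an early factor of autophagy, fell on 2 of its 4 probe sets, by at least 0.95, and TMEM106B, a lysosomal membrane protein, fell 2.29-fold on its dimmest probe set, a call made in 1 of the 9 fits that left out an array. Its brighter probe sets differed by -0.89 and -0.62 and did not pass. ETV1, an ETS family transcription factor, read 188, 127.9 and 150.4 in control cells on 1 probe set and 1.238, 2.738 and 8.504 in TIG1B cells, at least 2.37-fold lower. OSBPL3, an oxysterol-binding protein, fell by 1.58 on its brighter probe set, also in all 9 fits that left out an array. ZDHHC4, a palmitoyltransferase, fell 2.97-fold from 2144, 1990 and 1876 to 751.8, 648.9 and 624.9. Of the 17 palmitoyltransferase genes measured 3 fell, ZDHHC4, ZDHHC8 (-1.07) and ZDHHC18 (-0.99), with a median of -0.35, against 1.38% of all genes that fell. The latter pair lie on other chromosomes. Their calls were each made in 1 of the 9 fits that left out an array, and not under median centring. The ZDHHC4 call was made in all 9.

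The highest runs lay on chromosome 11. Of the 10 highest run medians 8 were on this chromosome, of the 15 highest 11. The highest was B3GNT6 to SYTL2 with 0.43, followed by SRSF8 to GUCY1A2 with 0.41 and SIK3 to TRAPPC4 with 0.35. From the run that begins with UQCC3, at 62671673, to the last run, which ends with SNX19 at 130916479, all 18 runs had medians above 0 (0.03 to 0.43). This was so for 4 of the 13 runs before it and for 207 of 458 runs on chromosomes other than 7 and 11. The starting point was set after the values were seen. Over the 450 genes of the 18 runs 313 were higher in TIG1B cells, 18 passed as higher (4.0% against 0.687% of all genes) and 2 as lower. The medians of the 3 TIG1B arrays were 0.28, 0.25 and 0.27 above the control mean. The TIG1A arrays were on the other side of the control cells, at -0.17, -0.21 and -0.22, and the median difference of TIG1B from TIG1A cells was 0.47. Under median centring the TIG1B median was 0.41, and under quantile normalisation 0.28.

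**Figure D3:**
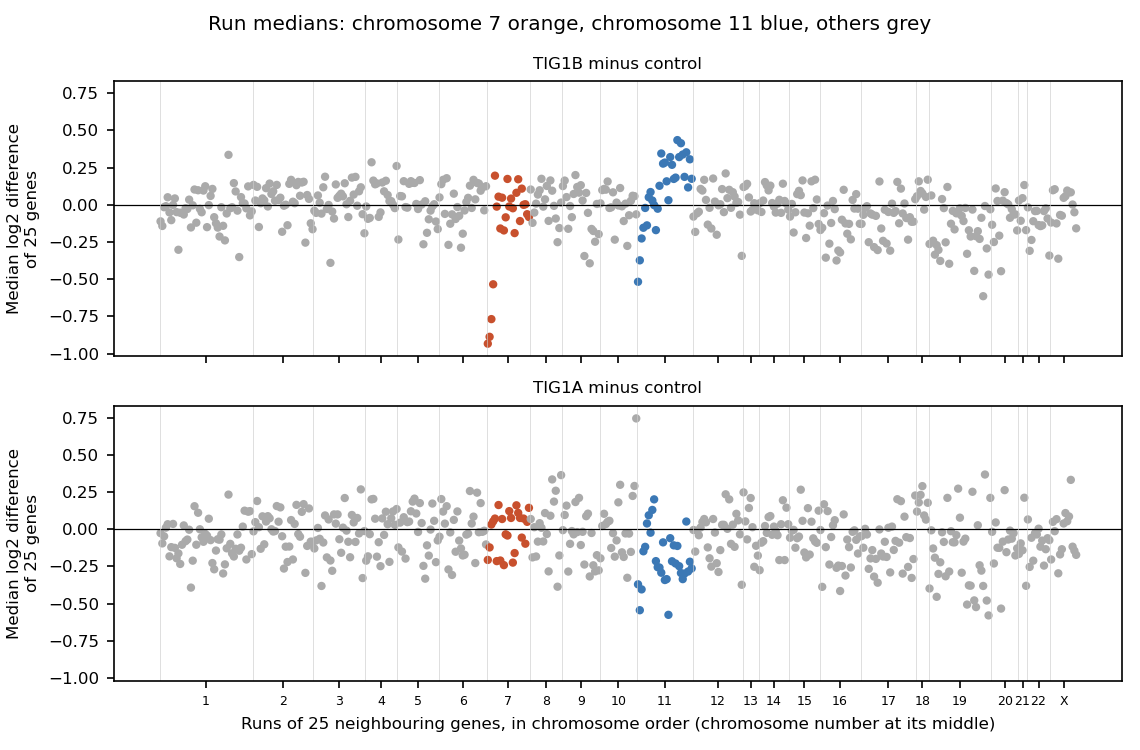
Median log2 difference from control cells (y axis) of 513 runs of 25 neighbouring genes in chromosome order (x axis), for TIG1B cells (top) and TIG1A cells (bottom), with chromosome 7 in orange and chromosome 11 in blue. In TIG1B cells the first runs of chromosome 7 lie at -0.93 to -0.53 and the runs of chromosome 11 from UQCC3 on at 0.03 to 0.43.

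FKBP2, a prolyl isomerase of the endoplasmic reticulum, rose from a mean of 1360 to 4220 (1.63, adjusted p = 0.00913). TTC9C and ATL3, a membrane-shaping GTPase of the endoplasmic reticulum, rose by 1.28 each, and CCDC85B by 1.17. POLR2G, a subunit of RNA polymerase II, rose by 0.69, COX8A, a subunit of cytochrome c oxidase, by 0.71, and OTUB1, a deubiquitinase, by 0.81. UVRAG, a regulator of autophagy and endosomal traffic, rose by 1.22. ARHGAP42 read 210.4, 151.8 and 134.6 in control cells and 417.2, 413.3 and 384.9 in TIG1B cells (1.32, adjusted p = 0.021), with 174.1 to 200.1 in TIG1A cells. It did not pass between TIG1B and TIG1A cells (1.15, limma adjusted p = 0.0515). All 18 genes called higher were also above control cells in TIG1A cells, by 0.11 to 0.75, and FKBP2 (0.75, adjusted p = 0.0335) and C11orf71 (0.74, adjusted p = 0.0392) passed there too. Both differences use the same control arrays, and the 18 were picked on them, so this is not independent evidence. Over all 450 genes of these runs the median difference of TIG1A from control cells was -0.23. BIRC2, the ubiquitin ligase cIAP1, rose by 0.77, from 5620 ± 457 to 9590 ± 776 (SD, n = 3). That call was made in 1 of the 9 fits that left out an array. In the highest run none of the 25 genes passed, and its 4 smallest p-values belonged to ALG8 (0.75), PCF11 (0.78), TMEM126A (0.58) and CLNS1A (0.54), with adjusted p of 0.0704 to 0.131. These genes were named by position and by their calls, so the counts are descriptions.

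The study's own selection for TIG1B cells held 56 probe sets, of which 30 were also in its selection shared with TIG1A cells and 26 were not. It was made on these same arrays, and the counts below are therefore not independent evidence. Of the 26, 18 were higher and 8 lower in TIG1B cells, and 13 and 8 passed, against 2.07% of all probe sets. All 56 had groups that did not overlap, as did 25.5% of all probe sets. Of the 8 that fell, 5 lie on chromosome 7 (EIF3B, DAGLB, DNAAF5, ZDHHC4 and RAC1) and the others are ATP2B1, EPB41L4A and KLK6. Of the 14 that were higher and have 1 symbol, 7 lie on chromosome 11. Among the rises outside that chromosome, SCD, the stearoyl-CoA desaturase, rose by 0.89 on 1 probe set, DPYSL2, a microtubule-binding protein, by 0.97 and CYBRD1, a duodenal ferric reductase, by 0.86. PCIF1, a methyltransferase of messenger RNA caps, read 309.1, 310.9 and 255 in control cells and 599.7, 525.6 and 472 in TIG1B cells (0.87, adjusted p = 0.036). IDI1 and COCH, also outside it, had 1.00 and 0.88 and missed the threshold (limma adjusted p = 0.0535 and 0.0759). On chromosome 11, CST6, which encodes the protease inhibitor cystatin M, and TM7SF2 missed it too. They had 0.90 and 0.98 with adjusted p of 0.0549 and 0.061. Of the 26, 4 also passed against TIG1A cells, namely KLK6, ATP2B1, EPB41L4A and ZDHHC4.

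**Figure D4:**
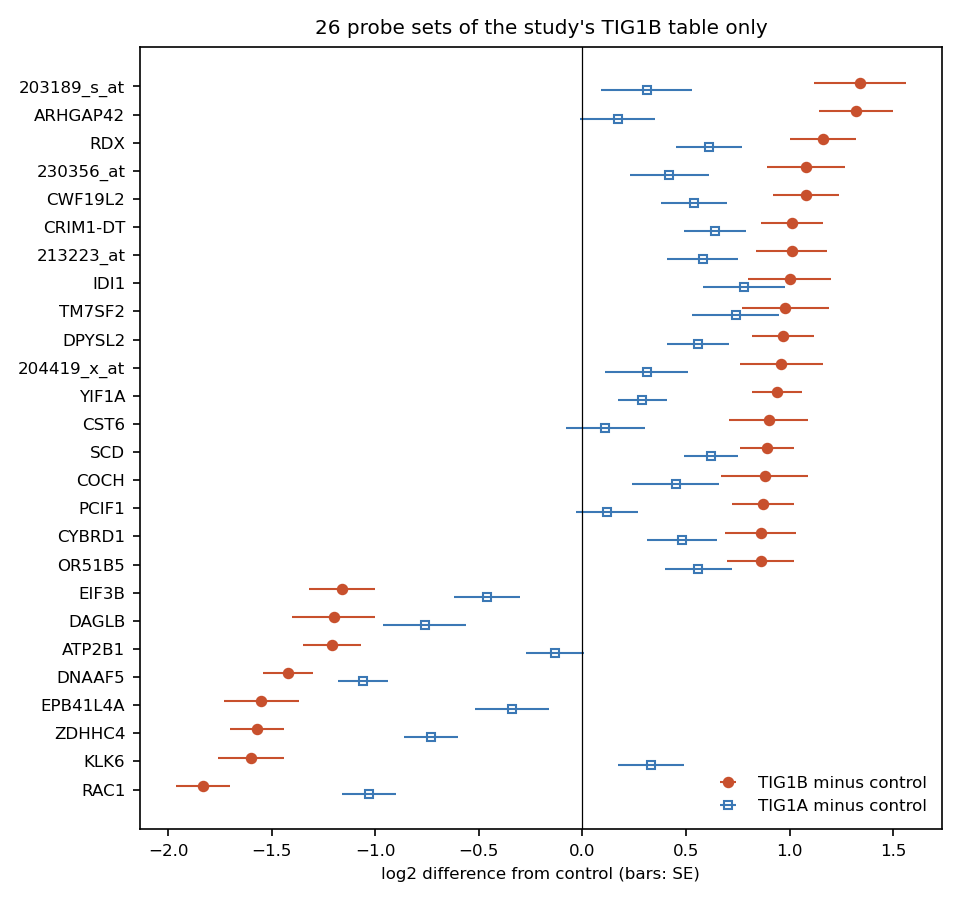
log2 difference from control cells with its SE (x axis) for the 26 probe sets of the study's TIG1B selection that were not in its shared selection (rows), in TIG1B cells (filled) and TIG1A cells (open). In KLK6 the TIG1A point lies at 0.33 and the TIG1B point at -1.60, and in ATP2B1 at -0.13 and -1.21.

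Of the 30 shared probe sets, 24 were higher and 6 lower in TIG1B cells, 17 and 6 passed against control cells and 0 passed between TIG1B and TIG1A cells. GRK5, a kinase that desensitises G protein-coupled receptors, read 533, 355.9 and 572 in control cells, 2004, 2206 and 2254 in TIG1A cells and 867.8, 838.9 and 1009 in TIG1B cells on 1 probe set. In TIG1B cells the difference was 0.92 with an adjusted p of 0.0606, and against TIG1A cells it was -1.25 with an adjusted p of 0.0512. On a brighter probe set outside the selection the difference from control was 1.31 with an adjusted p of 0.0824. FES, a non-receptor tyrosine kinase, rose by 1.05 and EME1, a subunit of a structure-specific endonuclease, by 1.40, while MED15, a Mediator subunit, fell by 1.33 and RBM38, an RNA-binding protein, by 1.17.

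Across 29 gene lists 540 genes were measured and 20 passed on their brightest probe set, against 2.07% of all genes, and 16 lists had no such member. None passed among 28 genes of the beta-catenin destruction complex and TCF/LEF factors (median 0.00), 15 Wnt target genes (-0.09), 7 GPCR kinases and arrestins (0.18), 8 genes of the prostaglandin E2 pathway (0.13), 33 genes of G1 to S (-0.09), 27 mitosis genes (-0.17) or 20 p53 targets (0.27). The G1 to S and Wnt target medians became 0.06 and 0.05 under median centring. In the Wnt target list SOX9 had -0.86 (adjusted p = 0.0712) and FGF9 0.89 (0.0746). In the sterol synthesis list 18 of 21 genes had a higher signal and 0 passed, with a median of 0.42 (0.56 under median centring and 0.45 after quantile normalisation). SQLE had 1.11 (adjusted p = 0.0511) on a dimmer probe set and FDPS 0.72 (adjusted p = 0.106). Of 33 genes of complex I, 29 had a higher signal and 0 passed, with a median of 0.26 and NDUFB7 at 0.83 (adjusted p = 0.0549). None of 25 genes of the unfolded protein response (0.12), 26 of glycolysis and hypoxia (-0.04), 14 retinoid receptors and responsive genes (-0.34), 13 differentiation markers (0.21), 10 genes around latexin and cystatins (0.25) or 6 of the tRNA synthetase complex (0.15) passed on the brightest probe set. On dimmer probe sets PGK1 (2.15), ENO1 (1.43) and TPI1 (0.93) of glycolysis, HOXB7 (0.93) of the retinoid list and HSP90B1 (2.56) of the unfolded protein response rose, and KLF4 (-0.97), a factor of epithelial differentiation, and the chaperone CALR (-1.0) fell. AURKA, a mitotic kinase, rose on a dim probe set from below the array median.

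Over all genes, 1.38% fell and 0.687% rose on the brightest probe set. Of 17 amino acid transporters 2 fell, SLC7A5 from 9300, 12690 and 10890 to 5103, 4258 and 4654 (-1.22, adjusted p = 0.0193) and SLC1A5, a glutamine transporter, by 1.51 (adjusted p = 0.0297). In TIG1A cells they differed from the same control arrays by -1.27 and -1.34. Their calls in TIG1B cells were made in 5 and 3 of the 9 fits that left out an array. SLC1A5 did not pass under median centring. Of 45 genes of transport from endoplasmic reticulum to Golgi, YIF1A rose by 0.94, KDELR1, a retrieval receptor, fell by 0.86 and the Golgi matrix protein GOLGA2 fell by 0.68. The calls of YIF1A, KDELR1 and GOLGA2 were made in 5, 2 and 1 of those 9 fits. KDELR1 and GOLGA2 did not pass under median centring. Of 19 clathrin and adaptor genes EPN1 (epsin 1) fell by 1.97 and AP2A1, a subunit of the endocytic adaptor, by 1.19. Of 19 genes of fatty acid synthesis AGPAT1, an acyltransferase of phospholipid synthesis, fell on both probe sets by 1.18 and 1.38.

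Of 27 genes of the BCL2 family and death receptors, BIRC2 rose and the pro-apoptotic member BOK fell by 1.07. MCL1, a pro-survival member, rose by 1.36 on a dim probe set. The calls of BIRC2, BOK and MCL1 were made in 1, 2 and 3 of the 9 fits that left out an array. BIRC2 did not pass after quantile normalisation, and BOK did not pass under median centring. Of 12 steroid receptor and target genes SGK1, a kinase induced by glucocorticoids, rose by 1.11, from 1050 ± 150 to 2250 ± 169 (SD, n = 3), and its difference in TIG1A cells was 0.74. Of 16 NF-kappaB genes SOD2 rose by 1.18, and of 21 interferon-stimulated genes IRF7, an interferon regulatory factor, fell by 1.03 (-0.19 in TIG1A cells). IRF7 did not pass between TIG1B and TIG1A cells (-0.83, limma adjusted p = 0.0956). KRT19 fell by 0.66 among 26 genes of junctions and mesenchymal markers, and MLH3 rose by 0.86 among 8 mismatch repair genes. SGK1 and SOD2 were called in 5 and 8 of those 9 fits, and IRF7, KRT19 and MLH3 in 3, 1 and 2. IRF7, KRT19 and MLH3 did not pass under median centring. In these bulk extracts fewer cells with a transcript and less RNA per cell cannot be told apart.

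**Figure D5:**
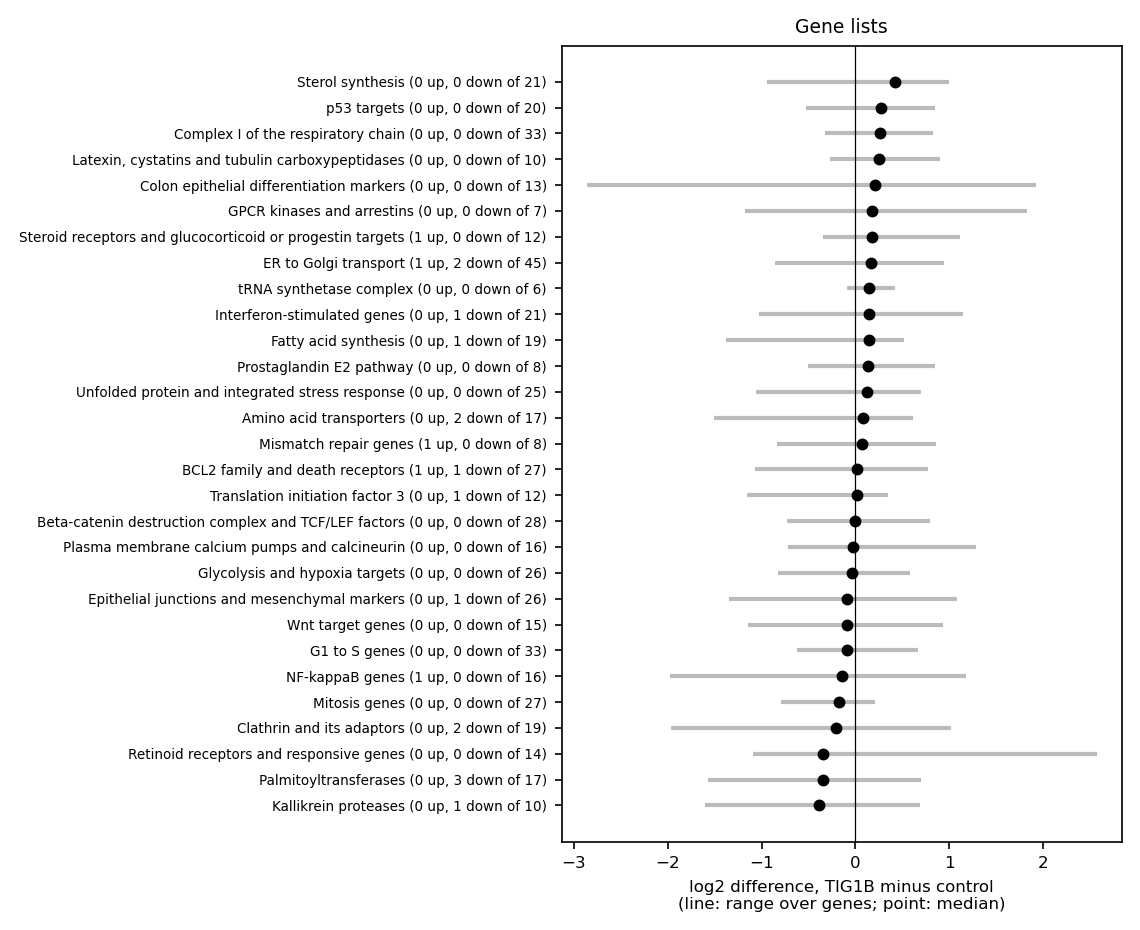
log2 difference of TIG1B minus control cells (x axis) over the measured genes of 29 lists (rows) on their brightest probe set, as range (grey line) and median (point), with the number of genes that rose and fell in brackets. The highest median is 0.42 for sterol synthesis and the lowest -0.39 for the kallikreins.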

How the data were processed

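The authors hybridised biotinylated RNA of 3 cultures of each stable line to Human Genome U133 Plus 2.0 arrays and scaled each array to a common target with GCOS (per the labels). The deposited series table gives 1 linear intensity per probe set and array. Groups came from the sample titles. Values below 1 were set to 1, log2 was taken, and probe sets at or above the array median on at least 2 of 3 arrays of the TIG1B or the control group were kept (28836 of 54675, with 62 array controls left out). A linear model with a mean for each of the 3 lines was fitted to all 9 arrays with limma 3.58.1 (lmFit, eBayes) in R 4.3.3, with Benjamini-Hochberg adjustment over all kept probe sets and a threshold of 0.05. The fit was tested on simulated data. The p-values measure the spread between 3 cultures of 1 clone, and precision is limited by how few arrays there are. Of 54675 probe sets, 41097 have 1 gene symbol, 1801 several and 11777 none, and 41043 were matched to GRCh38.p14. Genes in lists and runs were read on the brightest kept probe set with 1 symbol. A group below the array median on all 3 arrays was set to those medians for a bound. Genes were named by rule: RARRES1, the 15 largest rises and falls bright on all 6 arrays, the study's selection, list members that passed or had the 4 smallest p-values, and the 4 smallest p-values of the 3 highest and 3 lowest runs. The genes that differed from both lines, the genes of chromosome 11 and those with several called probe sets were picked after their values were seen. The comparison, the members and the lists were chosen with earlier results of these data known. Same-numbered arrays were not paired, since their deviations from the group means correlated between -0.042 and 0.016 for control and TIG1B cells. For TIG1A and TIG1B cells they correlated between 0.048 and 0.199. The result of 1 further gene list is not reported here.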

Additional observations from a re-analysis of the deposited data

Results flagged for a closer look

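Genes named by rule whose change in TIG1B cells also differed from TIG1A cells (limma, both adjusted p under 0.05) are given here. The values are log2 differences of TIG1B minus TIG1A cells. SESN3 was higher by 1.5. KLK6 differed by -1.94, USP42 by -1.77, RBAK by -1.36, EPB41L4A by -1.21, CHST12 by -1.12, ATP2B1 by -1.09, ANKMY2 by -1.05, SUN1 by -0.97, RAC1 by -0.85 and ZDHHC4 by -0.84. Adjusted p lay between 0.0134 for KLK6 and 0.049 for ZDHHC4. For RAC1 a single probe set passed, while its brightest differed by -0.8 and did not pass (limma adjusted p = 0.0909). USP42, RBAK, CHST12, ANKMY2, SUN1, RAC1 and ZDHHC4 are genes of the first 4 runs of chromosome 7. Further genes, picked after their values were seen, also passed both tests. Among them are PCDH7 (1.72), DOCK5 (1.17), TFEB (-2.21) and GAS6 (-1.31). The 2 comparisons share the TIG1B arrays. Without TIG1B replicate 2 the test against TIG1A cells had 0 calls.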

How the results depend on the processing

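None of the 2896 values of 154 named probe sets under the alternatives changed direction, but 1138 were no longer past the threshold. The 596 calls against control cells became 1580 with the trend and robust options, 1827 with a filter at the 75th percentile, 1046 with an offset of 50, 55 on the 6 arrays alone and 11 without a filter. The methods' t-test gave 4551 at an unadjusted p under 0.05 and 6 after adjustment. Leaving out 1 array gave 72 to 1257. The 393 calls of at least 2-fold became 55 on the 6 arrays alone, 11 without a filter, 5 with the methods' t-test and 72 to 731 without 1 array. The 131 calls against TIG1A cells became 603 with the trend and robust options and also at the 75th percentile, 233 with the offset, 83 with median centring and 0 without a filter, and 0 to 170 without 1 array. At an unadjusted p under 0.05, limma gave 5544 probe sets against control cells.

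Replicate numbers were not taken to pair the arrays, since not every same-numbered pair correlated above 0.1 (TIG1A and TIG1B arrays 0.199, 0.048 and 0.066). Pairs of TIG1A and TIG1B arrays with unlike numbers correlated between -0.135 and 0.101. With the replicate number as a block the calls were 42 against control cells, all 42 at least 2-fold, and 0 against TIG1A cells, and 2 list genes passed. The 20 list genes became 0 without a filter and 3 to 44 without 1 array. The lowest run median of -0.93 was -0.79 with median centring and -1.01 to -0.86 without 1 array. The highest of 0.43 was 0.58 with median centring, 0.27 on the mean of all probe sets of a gene, 0.59 in runs of 15 genes and 0.36 to 0.47 without 1 array. Fewer arrays or a wider set of tests enter several of these settings, and the cause of the other shifts was not tested.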
